A study of Homo sapiens with 6 samples.

Results

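The mRNAs of 9 transcription factors of granulocyte and monocyte fate were followed in MV4-11 leukemia cells: SPI1, RUNX1, CEBPA, CEBPD, CEBPE, GFI1, IRF8, KLF4 and ZEB2. They were taken by symbol, each from a single Ensembl identifier, out of 20263 genes in the count table. MV4-11 is an established line of human acute myeloid leukemia, with a KMT2A-AFF1 fusion and a tandem duplication within the receptor kinase gene FLT3. Cells were cultured for 24 h with venetoclax and cyclosporine A together (VEN+CSA), with venetoclax alone (VEN, 100 nM) or with cyclosporine A alone (CSA, 2.5 µM), with 2 libraries in each of the 3 groups. Venetoclax inhibits the survival protein BCL2, and cyclosporine A inhibits the phosphatase calcineurin. The growth protocol does not give the doses in VEN+CSA separately, the cells are a single line whose genotype entry reads WT, and untreated cells were not analysed here. The labels do not tie the libraries of a group to separate cultures. The p-values therefore reflect only how far these libraries spread, which may be technical.

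These factors set the fate of myeloid progenitors. PU.1, the product of SPI1, binds ETS sites in many myeloid genes, RUNX1 acts with its partner CBFB, and the C/EBP factors direct granulocyte genes, CEBPA in progenitors and CEBPE late in neutrophil maturation. IRF8 and KLF4 favour monocytes, GFI1 is a repressor that favours granulocytes, and ZEB2 is a zinc finger repressor used by monocytes and dendritic cells. Mutation or altered dosage of RUNX1, CEBPA and SPI1 is known in acute myeloid leukemia.

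RUNX1 and ZEB2 had their highest level in a single library, VEN replicate 2, where CEBPA had its lowest, while IRF8 varied little. A promoter of each is therefore shown, as 300 bases from 250 before to 50 after a RefSeq start (build GRCh38.p14, 5′ to 3′ on the gene's strand). Capitals mark matches on either strand to TTNNGCAA (C/EBP), GAGGAA (PU.1), TGTGGT (RUNX), a pair of GAAA runs with any 2 bases between them (IRF), CACCC (KLF) or CAGGTG (an E-box bound by ZEB factors).
RUNX1 (chr21:34888650-34888949, minus strand): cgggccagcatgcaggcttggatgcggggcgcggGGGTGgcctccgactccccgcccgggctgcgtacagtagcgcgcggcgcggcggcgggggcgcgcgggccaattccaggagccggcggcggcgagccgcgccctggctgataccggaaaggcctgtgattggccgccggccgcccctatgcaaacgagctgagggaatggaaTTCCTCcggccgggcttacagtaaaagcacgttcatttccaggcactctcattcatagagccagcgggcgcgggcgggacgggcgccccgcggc
ZEB2 (chr2:144520070-144520369, minus strand): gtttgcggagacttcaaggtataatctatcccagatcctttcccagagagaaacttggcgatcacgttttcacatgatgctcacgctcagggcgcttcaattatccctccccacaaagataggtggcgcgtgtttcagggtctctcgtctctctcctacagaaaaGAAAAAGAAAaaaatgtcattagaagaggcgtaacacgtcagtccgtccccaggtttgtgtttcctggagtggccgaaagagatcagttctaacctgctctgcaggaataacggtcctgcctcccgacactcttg
CEBPA (chr19:33302485-33302784, minus strand): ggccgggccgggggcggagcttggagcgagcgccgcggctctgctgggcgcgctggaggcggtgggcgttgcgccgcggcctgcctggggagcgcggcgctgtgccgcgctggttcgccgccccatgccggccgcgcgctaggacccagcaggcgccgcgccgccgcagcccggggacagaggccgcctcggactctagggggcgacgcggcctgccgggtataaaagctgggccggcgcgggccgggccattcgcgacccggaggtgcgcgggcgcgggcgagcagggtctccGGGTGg
IRF8 (chr16:85902580-85902879, plus strand): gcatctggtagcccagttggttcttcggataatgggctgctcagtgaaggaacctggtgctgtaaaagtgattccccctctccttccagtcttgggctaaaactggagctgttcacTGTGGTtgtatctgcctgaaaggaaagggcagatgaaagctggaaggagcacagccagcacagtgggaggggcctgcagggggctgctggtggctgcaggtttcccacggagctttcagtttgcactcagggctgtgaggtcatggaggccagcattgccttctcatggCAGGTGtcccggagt

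The GC content of these windows was 72% for RUNX1, 49% for ZEB2, 80.7% for CEBPA and 56.3% for IRF8. The windows of RUNX1, ZEB2 and IRF8 lie inside the gene bounds given below, at an internal start. The outer 5′ ends of these genes were not scanned. RUNX1 held a PU.1 and a KLF match, CEBPA a KLF match and ZEB2 an IRF match. IRF8, at the first of the 2 starts matched, held a RUNX and an E-box match, and no motifs overlapped. Of 35116 promoters of the same length, 27.9% held the PU.1 motif, 59.9% the KLF motif, 3.57% the IRF motif, 13.1% the RUNX motif, 20.6% the E-box and 10.5% the C/EBP motif. Of the promoters not shown, those of CEBPE and KLF4 each held a PU.1 match, and of 3 GFI1 promoters 1 held a C/EBP and a RUNX match and another a PU.1 match. KLF matches lay in CEBPE and GFI1 as well. A match is a run of letters and not a shown binding site. RefSeq promoters were matched for 7 of the 9 factors, all but SPI1 and CEBPD.

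In GRCh38 (GENCODE release 29) all 9 genes are protein-coding. SPI1 lies at 47354860 to 47378576 on chromosome 11, RUNX1 at 34787801 to 36004667 on chromosome 21, CEBPA at 33299934 to 33302564 on chromosome 19, CEBPD at 47736909 to 47739086 on chromosome 8, and CEBPE at 23117304 to 23119616 on chromosome 14. GFI1 lies at 92474762 to 92486876 on chromosome 1, IRF8 at 85898803 to 85922609 on chromosome 16, KLF4 at 107484852 to 107490482 on chromosome 9, and ZEB2 at 144364364 to 144524583 on chromosome 2. Exons of CEBPA and ZEB2 overlap antisense genes that are not among the counted genes, such as ZEB2-AS1. No source used here gives the strand setting of the counting, so reads of such a pair cannot be told apart.

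Total counts ranged from 26567900 to 30738957 per library. VEN replicate 2 stood apart, with 41.5% of its counts in mitochondrially encoded genes, while the other 5 libraries had 7.41% to 15.2%. Every pair of replicates differed by more than sampling noise (31.5 to 846 by chi-square over its degrees of freedom), and each library was counted on its own. The cell line's defining genes were present, with FLT3 at 838 to 926 CPM (a count relative to its library's total, scaled by TMM) in the 6 libraries. Of the 7 genes typical of the line, 0 passed the test described below, with median log2 fold changes of 0.07 in VEN+CSA against VEN, 0.02 in VEN+CSA against CSA and -0.19 in VEN against CSA (-0.05 without VEN replicate 2). Of 15 markers of other cell types, 12 had too few counts to be tested and 8 of these were at 0 in every library, among them CD3D, CD3E, HBB and EPCAM. Apart from PECAM1, which myeloid cells also express, the markers summed to 1.81 to 2.65 unscaled CPM with VEN+CSA, 1.18 to 4.03 with VEN and 2.70 to 3.46 with CSA.

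Per transcript length, SPI1 had the highest median of the 9 mRNAs and CEBPE the lowest. Level here is TMM-scaled CPM per kilobase of the gene's longest transcript in the GENCODE basic set (RPKM). It is given as the median over the 6 libraries with the lowest and highest. The GC content of a transcript, used below, is that of the same transcript. SPI1 was at 168 RPKM (137 to 201), CEBPA at 106 (55.2 to 115), IRF8 at 69.0 (62.5 to 72.3) and GFI1 at 55.4 (46.2 to 56.6). ZEB2 was at 48.3 RPKM (39.7 to 94.3), RUNX1 at 44.7 (38.5 to 176), CEBPD at 19.6 (16.3 to 22.8), KLF4 at 2.10 (2.06 to 2.33) and CEBPE at 0.830 (0.375 to 1.02). Neighbours in this order had separate ranges except CEBPA and IRF8, GFI1 and ZEB2, and ZEB2 and RUNX1. In VEN replicate 2 RUNX1 (176 RPKM) lay above SPI1 (139.8 RPKM). Without VEN replicate 2, CEBPA and IRF8 no longer overlapped, while GFI1 and ZEB2, and ZEB2 and RUNX1, still did. A shorter main transcript would raise the level of a gene, which bears most on the long RUNX1 and ZEB2 models of 7274 and 9583 nt.

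**Figure D1:**
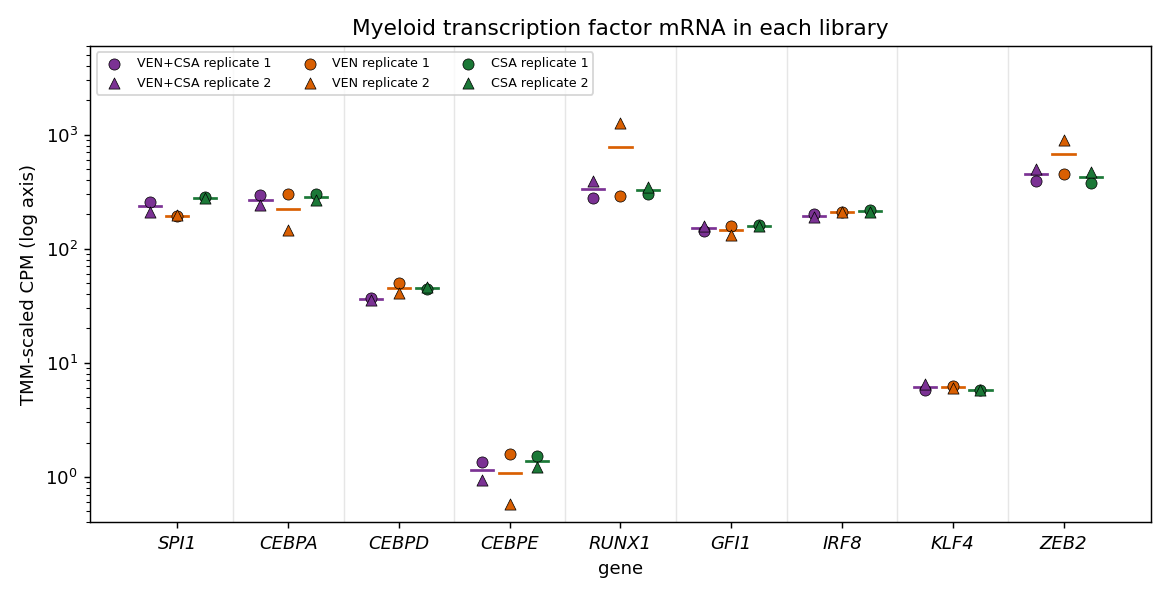
TMM-scaled CPM (log axis) of the 9 factors in each library, with VEN+CSA, VEN and CSA from left to right for each gene, circles for replicate 1, triangles for replicate 2 and a bar at each group's mean. RUNX1 reached 1277 CPM in VEN replicate 2 and lay between 280 and 390 CPM in the other 5 libraries, whereas IRF8 stayed between 190 and 219 CPM.

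None of the 9 factors passed edgeR's quasi-likelihood test (Benjamini-Hochberg adjusted p under 0.05 over 12690 genes) in any of the 3 comparisons. All 9 passed the filter on low counts. The same test called 0% of all genes in VEN+CSA against VEN, 0% in VEN+CSA against CSA and 0% in VEN against CSA, so the members' 0 of 9 equals the background. Adjusted p of the members ran from 0.533 to 0.996 against VEN, was 1.00 for all against CSA, and ran from 0.633 to 0.986 for VEN against CSA. At an unadjusted p under 0.05 the counts of members were 0 of 9 (10.8% of all genes, 5.33% higher and 5.48% lower), 0 of 9 (3.64%, with 1.95% higher and 1.69% lower) and 1 of 9 (4.8%, with 2.34% higher and 2.46% lower) in this order. DESeq2 and limma-voom also called 0 members in each comparison, where DESeq2 called 2.22%, 0.423% and 0.466% of all genes. The comparisons share libraries pairwise and are not independent of each other.

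The libraries of a pair of groups did not overlap for 3 of 9 factors in each comparison. With VEN+CSA, SPI1 lay above both VEN libraries (19.2% of all genes did), and CEBPD and IRF8 lay below them (18.9%), where 38.1% of all genes did not overlap. SPI1, CEBPD and IRF8 also lay below both CSA libraries (23.7% of all genes did, and 47.2% did not overlap). With VEN, SPI1 and IRF8 lay below both CSA libraries (19.9% of all genes) and KLF4 above them (20.8%), where 40.7% of all genes did not overlap. In each comparison the share of members without overlap was below that of all genes.

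**Figure D2:**
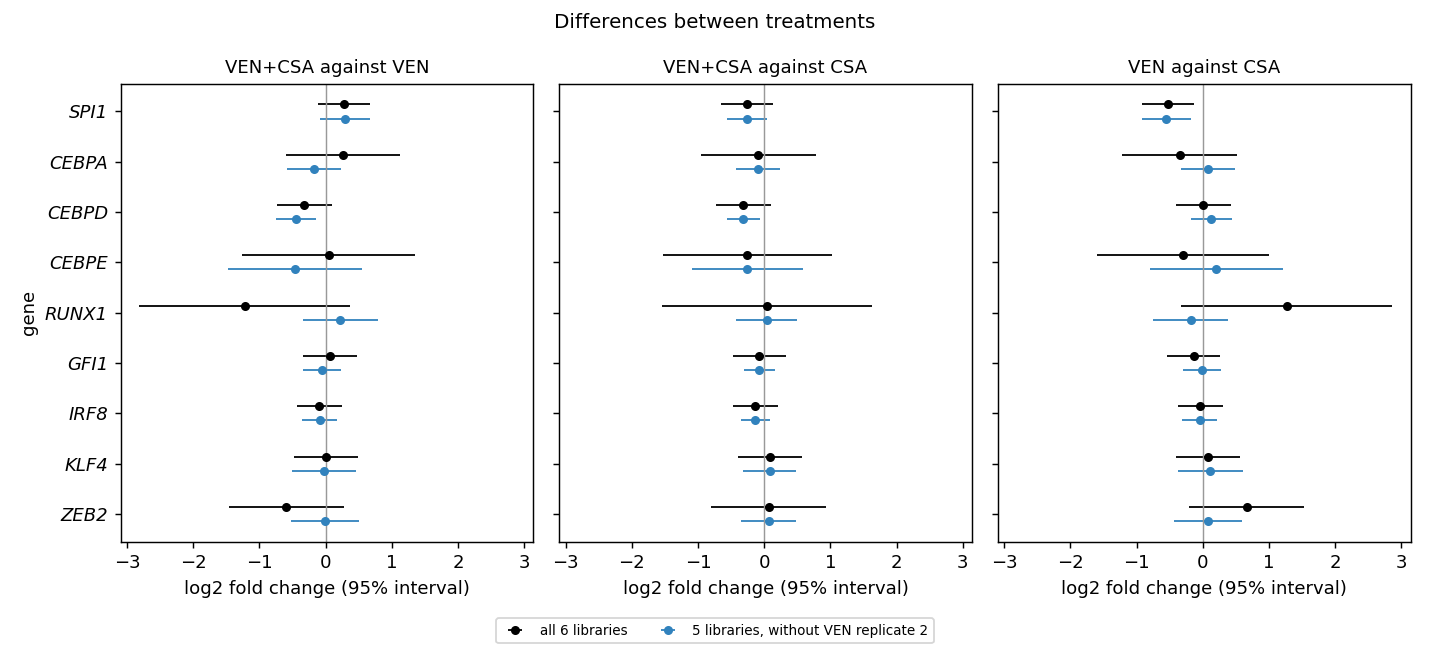
Log2 fold change (x axis) of each factor (y axis) with its 95% interval in VEN+CSA against VEN, VEN+CSA against CSA and VEN against CSA, from all 6 libraries (black) and from the 5 libraries without VEN replicate 2 (blue). The intervals of RUNX1 are the widest with all 6 libraries, and of the black intervals only that of SPI1 in VEN against CSA leaves out 0.

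With all 6 libraries and no GC offset, SPI1 was the 1 member with an unadjusted p under 0.05. This was in VEN against CSA, and SPI1 did not pass after adjustment. SPI1, which encodes PU.1, was at 259 and 212 CPM with VEN+CSA, 193 and 196 CPM with VEN, and 282 and 279 CPM with CSA. Both VEN libraries were the lowest, both CSA libraries the highest, and VEN+CSA lay between them without overlap. The log2 fold change was -0.53 (SE 0.16, 95% interval -0.92 to -0.14) in VEN against CSA, with edgeR's unadjusted p = 0.0166 and adjusted p = 0.633. It was 0.27 (SE 0.16, interval -0.12 to 0.67) in VEN+CSA against VEN and -0.25 (SE 0.16, interval -0.65 to 0.14) in VEN+CSA against CSA. Without VEN replicate 2 the value in VEN against CSA was -0.55. It was -0.10 when each library's trend with GC content was removed, where SPI1 stood at 175 and 291 adjusted CPM with VEN and 242 and 259 with CSA, so that the groups overlapped. With VEN replicate 2 left out and the GC trend removed the value was -0.54.

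RUNX1, the DNA-binding subunit of core binding factor, was at 280 and 390 CPM with VEN+CSA, 287 and 1277 CPM with VEN, and 301 and 350 CPM with CSA. VEN replicate 2 alone was high, and VEN replicate 1 lay among the other 4 libraries. The log2 fold change was -1.22 (SE 0.64, interval -2.81 to 0.36) in VEN+CSA against VEN and 1.26 (SE 0.64, interval -0.32 to 2.85) in VEN against CSA. Without VEN replicate 2 these turned to 0.22 (SE 0.22) and -0.19 (SE 0.22). Without VEN replicate 1 instead, RUNX1, ZEB2 and CEBPA passed edgeR's adjusted threshold in VEN+CSA against VEN (26.4% of all genes did) and in VEN against CSA (33.8%), with VEN replicate 2 as the only VEN library. RUNX1 was then at -1.93 and 1.97. With VEN+CSA against CSA and all libraries, RUNX1 was at 0.04 (SE 0.64). CBFB, its partner, was at 78.0 and 78.9 CPM with VEN+CSA, 74.8 and 77.1 with VEN, and 87.4 and 68.4 with CSA, without a high value in VEN replicate 2.

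Of the C/EBP factors, CEBPA and CEBPE had their lowest level in VEN replicate 2, and CEBPD did not. CEBPA, which starts the granulocyte programme in progenitors, was at 293 and 243 CPM with VEN+CSA, 302 and 145 CPM with VEN, and 304 and 266 CPM with CSA. Again 1 library, VEN replicate 2, was set apart, here as the lowest, and the other 5 lay between 243 and 304 CPM. CEBPA was at a log2 fold change of 0.26 (SE 0.35) in VEN+CSA against VEN and -0.35 (SE 0.35) in VEN against CSA, and without VEN replicate 2 these turned to -0.17 (SE 0.16) and 0.08 (SE 0.16). Against CSA, VEN+CSA was at -0.09 (SE 0.35).

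CEBPD, a C/EBP factor induced by stress and inflammatory signals, was at 37.2 and 35.4 CPM with VEN+CSA, 49.7 and 41.3 CPM with VEN, and 44.1 and 46.4 CPM with CSA. The 2 VEN+CSA libraries were the lowest of the 6. The log2 fold change was -0.32 (SE 0.17, interval -0.74 to 0.09) against VEN and -0.32 (SE 0.17, interval -0.73 to 0.10) against CSA, and 0.01 (SE 0.17) in VEN against CSA. The first 2 differences share the VEN+CSA libraries. Without VEN replicate 2, which left 1 VEN library, they were -0.45 and -0.32. With the GC trend removed the difference against CSA was -0.17.

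CEBPE, needed for the secondary granules of neutrophils, was near the limit of detection. Its counts were 45 and 26 with VEN+CSA, 47 and 11 with VEN, and 46 and 41 with CSA, or at most 1.59 CPM. VEN replicate 2 was the lowest. CEBPE was at a log2 fold change of 0.04 (SE 0.53, interval -1.26 to 1.35) in VEN+CSA against VEN, -0.25 (SE 0.51) in VEN+CSA against CSA and -0.30 (SE 0.52) in VEN against CSA, so changes of more than 2-fold in either direction lie within the first interval. In each library 64.8% to 66.7% of the counts from 1 to 20 were even numbers, against 49.0% to 51.0% of counts from 100, and the part of this in the low counts was not tested.

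IRF8 and KLF4 varied little between libraries. IRF8, a regulator of monocyte and dendritic cell fate, was at 201 and 190 CPM with VEN+CSA, 209 and 209 CPM with VEN, and 219 and 209 CPM with CSA. Its highest library was 1.16 times its lowest, and it had the smallest SD of log2 CPM of the 9 factors (0.0707). The VEN+CSA libraries were below the others, with log2 fold changes of -0.10 (SE 0.14, interval -0.44 to 0.25) against VEN and -0.13 (SE 0.14, interval -0.48 to 0.21) against CSA. In VEN against CSA the value was -0.04 (SE 0.14, interval -0.38 to 0.31).

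KLF4, a zinc finger factor that promotes monocyte differentiation, was at 5.79 and 6.54 CPM with VEN+CSA, 6.30 and 5.99 CPM with VEN, and 5.82 and 5.79 CPM with CSA. VEN and CSA libraries did not overlap, by a narrow gap, and VEN+CSA spanned both. The log2 fold changes were 0.00 (SE 0.20, interval -0.48 to 0.48), 0.09 (SE 0.19, interval -0.39 to 0.57) and 0.08 (SE 0.20, interval -0.40 to 0.57) in VEN+CSA against VEN, VEN+CSA against CSA and VEN against CSA. As folds, the first interval runs between 0.718 and 1.40.

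ZEB2 was at 394 and 501 CPM with VEN+CSA, 451 and 904 CPM with VEN, and 380 and 474 CPM with CSA. As with RUNX1, VEN replicate 2 was the highest library, and VEN replicate 1 lay among the other 4. The log2 fold change was -0.60 (SE 0.35) in VEN+CSA against VEN and 0.66 (SE 0.35) in VEN against CSA, and -0.01 (SE 0.20) and 0.07 (SE 0.20) without VEN replicate 2. Against CSA, VEN+CSA was at 0.07 (SE 0.35).

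GFI1, which restrains monocyte genes in granulocyte precursors, was at 144 and 160 CPM with VEN+CSA, 159 and 132 CPM with VEN, and 162 and 158 CPM with CSA. The groups overlapped in every comparison. GFI1 was at a log2 fold change of 0.06 (SE 0.16, interval -0.34 to 0.47) in VEN+CSA against VEN, -0.07 (SE 0.16, interval -0.48 to 0.33) in VEN+CSA against CSA and -0.14 (SE 0.16, interval -0.54 to 0.27) in VEN against CSA. Its relative GFI1B had a count of 0 in all 6 libraries.

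The replicate difference in VEN moved with the GC content of the transcripts. Over genes with a mean of at least 1 CPM, split into 5 bins by GC content, the median log2 difference of VEN replicate 2 minus replicate 1 was 0.54 in the lowest bin (31.3% to 41.1% GC) and -0.61 in the highest (58.7% to 76.7%). In VEN+CSA these medians were 0.09 and -0.09, and in CSA 0.08 and -0.08. ZEB2, with 39.1% GC in the lowest bin, differed by 1.00 between the VEN libraries. CEBPA, with 65.9% GC in the highest bin, differed by -1.06, and CEBPE, with 62.9%, by -1.35. RUNX1, with 47.1% GC, differed by 2.15 in a bin whose median was -0.0013. SPI1 and CEBPD, with 65.2% and 70.0% GC, differed by 0.03 and -0.27. The part of GC content in these values was not tested.

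**Figure D3:**
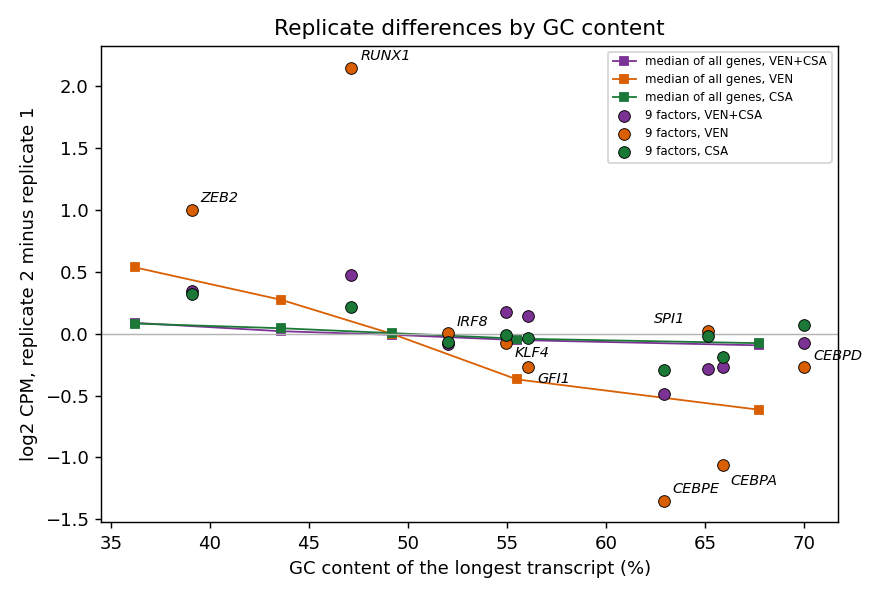
Difference in log2 CPM of replicate 2 minus replicate 1 (y axis) against the GC content of the longest transcript in percent (x axis), for the 9 factors (points, named at their VEN value) and as the median of all genes in 5 GC bins (lines). The VEN line falls by more than those of VEN+CSA and CSA, and RUNX1 lies 2.15 above 0 at a GC content where the VEN median is near 0.

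Removing the GC trend by an offset brought ZEB2 to 667 CPM in VEN replicate 2, against 484 in replicate 1, and CEBPA to 217 against 273. RUNX1 stayed at 1209 against 296 adjusted CPM. With this offset the log2 fold change in VEN against CSA was 1.20 (SE 0.61) for RUNX1, 0.30 (SE 0.20) for ZEB2 and -0.04 (SE 0.15) for CEBPA, and no member passed edgeR's test (adjusted p at least 0.265 in the 3 comparisons). In VEN+CSA against VEN, CEBPD was at -0.59 (SE 0.20), with edgeR's unadjusted p = 0.0298 and adjusted p = 0.265.

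Genes most like a factor were sought by the root mean square difference of centred log2 CPM over the 6 libraries, for factors with an SD above 0.3. That held for RUNX1 (SD 0.837), CEBPE (0.507), ZEB2 (0.454) and CEBPA (0.408). These factors were themselves extreme in VEN replicate 2. That the 12 nearest genes were extreme there too follows from the search and is no separate result. Nearest to RUNX1 were PROSER1 (0.0964), KMT2E, a chromatin protein (0.0979), and CCNK, cyclin K (0.109). KMT2E was at 89.7 and 121 CPM with VEN+CSA, 110 and 409 CPM with VEN, and 99.8 and 112 CPM with CSA. Nearest to ZEB2 were TTLL5 (0.0355), TPR, of the nuclear pore (0.0382), and USP25, a deubiquitinase (0.0396). Nearest to CEBPA were LRRC47 (0.0227), ITPRIP (0.0312) and DOK2, an adaptor of kinase signalling (0.0313), and to CEBPE RILP (0.0355), GCDH (0.0467) and SAPCD2 (0.0487). Without VEN replicate 2 no factor had an SD above 0.3, the highest being CEBPE at 0.283.

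Of 21 partners and co-factors of the 9 factors, 20 were tested. Against VEN, 10 were higher and 10 lower with VEN+CSA, with a median log2 fold change of -0.14 beside -0.01 for all genes. This median turned to 0.06 without VEN replicate 2, beside 0.01 for all genes. None passed edgeR's adjusted threshold (lowest adjusted p 0.111), and 3 higher and 2 lower had an unadjusted p under 0.05 (5.33% and 5.48% of all genes). CEBPB, the C/EBP factor of emergency granulopoiesis and macrophages, was at 49.5 and 56.0 CPM with VEN+CSA, 32.9 and 25.9 CPM with VEN, and 34.8 and 38.3 CPM with CSA. Both VEN+CSA libraries were above the others, with log2 fold changes of 0.84 (SE 0.19, adjusted p = 0.261) against VEN and 0.53 (SE 0.19, adjusted p = 1.00) against CSA. DDIT3, a stress-induced C/EBP family member that dimerizes with the others, was at 13.0 and 11.9 CPM with VEN+CSA, 4.37 and 4.30 CPM with VEN, and 10.6 and 9.0 CPM with CSA. TRIB1, a pseudokinase that targets C/EBP-alpha protein for degradation, was at 2.46 and 3.34 CPM with VEN+CSA, 6.61 and 9.49 CPM with VEN, and 3.44 and 4.65 CPM with CSA. Its log2 fold change was -1.47 (SE 0.31, adjusted p = 0.243) in VEN+CSA against VEN and 0.99 (SE 0.30, adjusted p = 0.633) in VEN against CSA. The VEN libraries were the highest for TRIB1 and the lowest for DDIT3.

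Of the 20 partners, 12 were higher and 8 lower in VEN+CSA against CSA (median 0.03), and in VEN against CSA 10 were higher and 10 lower (median 0.11, and -0.04 without VEN replicate 2). Unadjusted p was under 0.05 for 1 higher gene, CEBPB, in the first (1.95% of all genes). In the second it was so for TRIB1, higher (2.34% of all genes), and DDIT3, lower (2.46%). RUNX2 was at 55.9 and 16.2 CPM with VEN+CSA, 12 and 43.8 CPM with VEN, and 12.9 and 14.4 CPM with CSA, so that in VEN+CSA and in VEN a single library was high. CEBPZ, a further gene the naming rule took, was at a log2 fold change of 0.67 (SE 0.30) in VEN against CSA and 0.15 without VEN replicate 2. JUN, a partner of PU.1 on some promoters, was at -0.44 (SE 0.20) in VEN+CSA against CSA.

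Other transcription factors of blood lineage choice were tested for 18 of 24. With VEN+CSA, 7 were higher and 11 lower than with VEN (median log2 fold change -0.45, and -0.24 without VEN replicate 2, against -0.01 and 0.01 for all genes), and 5 lower genes had an unadjusted p under 0.05 (5.48% of all genes), with 0 passing edgeR's adjusted threshold (lowest 0.354). The 5 were GATA2, BCL6, TCF4, ID2 and EGR1. With VEN replicate 2 left out, they were at -0.65, -1.08, -0.53, -1.73 and -0.65. ID2, an inhibitor of basic helix-loop-helix factors, was at 9.36 and 10.9 CPM with VEN+CSA, 33.7 and 35.1 CPM with VEN, and 30.1 and 9.69 CPM with CSA. VEN+CSA lay below both VEN libraries, while the CSA libraries disagreed. The difference was -1.76 (SE 0.50) against VEN and -0.97 (SE 0.50) against CSA. BCL6, a repressor best known from germinal centre B cells, was at -1.40 (SE 0.39) and TCF4, a factor of plasmacytoid dendritic cells, at -0.80 (SE 0.24) in VEN+CSA against VEN. TCF4 was at 7.29 and 7.09 CPM with VEN+CSA, 10.4 and 14.6 with VEN, and 9.92 and 8.34 with CSA. Against CSA, 6 were higher and 12 lower with VEN+CSA (median -0.13), among them GATA2, a stem and progenitor factor, at -0.45 (SE 0.21). In VEN against CSA 12 were higher and 6 lower (median 0.38, and 0.11 without VEN replicate 2). There MYB, a progenitor factor, was at 445 and 1147 CPM with VEN and 408 and 464 with CSA, high in the same library as RUNX1, and IKZF1 was at 0.35 (SE 0.17), and at 0.16 without that library. GATA1 had counts of at most 3 and PAX5 of at most 4.

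Of 20 monocyte and macrophage genes 13 were tested, and CD14, CD163, VCAN, CLEC7A and MRC1 had at most 12 counts in any library. With VEN+CSA 7 were higher and 6 lower than with VEN (median 0.03), and 6 were higher and 7 lower than with CSA (median -0.06). With VEN 7 were higher and 6 lower than with CSA (median 0.16). These medians were -0.15, -0.13 and 0.12 without VEN replicate 2. With all libraries, 1 was higher and 1 lower in VEN+CSA against VEN at edgeR's unadjusted p under 0.05. The shares of all genes were 5.33% and 5.48%. In VEN+CSA against CSA 0 were higher and 1 lower at this threshold (1.95% and 1.69% of all genes). CSF1R, the macrophage growth factor receptor and a PU.1 target, was at 44.6 and 41.6 CPM with VEN+CSA, 54.4 and 33.0 CPM with VEN, and 54.0 and 50.5 CPM with CSA. The log2 fold change of CSF1R in VEN+CSA against VEN was -0.02 (SE 0.26), and -0.33 without VEN replicate 2. Against CSA it was -0.28 (SE 0.26), and -0.28 without VEN replicate 2. TLR4, the endotoxin receptor, was at 12.3 and 11.6 CPM with VEN+CSA, 24.3 and 28.1 CPM with VEN, and 17.8 and 18.2 CPM with CSA, with separate groups in each comparison. Its log2 fold change was -1.13 (SE 0.18, adjusted p = 0.163) against VEN, -0.59 (SE 0.18, adjusted p = 1.00) against CSA, and 0.54 (SE 0.18, adjusted p = 0.633) in VEN against CSA. NLRP12, a receptor of myeloid cells, was at 11.1 and 10.8 CPM with VEN+CSA, 1.97 and 1.17 CPM with VEN, and 7.17 and 7.53 CPM with CSA. Its difference of 2.78 (SE 0.28) in VEN+CSA against VEN had edgeR's adjusted p = 0.0945 with all libraries. The difference was 2.48 without VEN replicate 2, which left 1 VEN library. MS4A7, a gene of macrophages, was at 20.25 and 22.21 CPM with VEN+CSA, 5.32 and 17.29 with VEN, and 14.05 and 14.35 with CSA. Its log2 fold change against VEN was 0.92 (SE 0.51) with all libraries. It was 2.00 without VEN replicate 2, which left only the lower VEN library. CD68 was at 0.64 (SE 0.28) in VEN+CSA against CSA. In VEN+CSA against VEN it was at 0.25 (SE 0.28), and at 0.63 without VEN replicate 2. ITGAX was at 0.50 (SE 0.21) in VEN+CSA against VEN and FCGR1A at -0.36 (SE 0.23) in VEN against CSA, and without VEN replicate 2 these were 0.28 and -0.10.

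Of 20 granulocyte genes 9 were tested. LCN2, MMP8, CEACAM8, S100A12 and FCGR3B, genes of mature neutrophils, were at 0 counts in every library, and LTF had at most 2. With VEN+CSA 3 were higher and 6 lower than with VEN (median -0.12), and 1 was higher and 8 lower than with CSA (median -0.22). With VEN 3 were higher and 6 lower than with CSA (median -0.12). The medians without VEN replicate 2 were -0.48 in VEN+CSA against VEN and 0.02 in VEN against CSA, beside 0.01 and -0.01 for all genes. ELANE, PRTN3, AZU1 and MPO, 4 of the 9, were then lower in VEN+CSA against VEN at an unadjusted p under 0.05 (15.5% of all genes in either direction), against 1 with all libraries. ELANE, PRTN3 and AZU1 were so in VEN+CSA against CSA (12% of all genes), against 0 with all libraries, and 0 genes of the list passed the adjusted threshold. PRTN3, a protease of primary granules, was at 384 and 438 CPM with VEN+CSA, 614 and 430 CPM with VEN, and 547 and 584 CPM with CSA. ELANE, neutrophil elastase and a known target of C/EBP and GFI1 factors, was at 144 and 125 CPM with VEN+CSA, 188 and 104 CPM with VEN, and 206 and 188 CPM with CSA. The differences against CSA were -0.46 (SE 0.21) for PRTN3 and -0.55 (SE 0.29) for ELANE. CTSG, a further granule protease, was at -0.57 (SE 0.21) in VEN against CSA, and at -0.35 without VEN replicate 2. MPO, myeloperoxidase, was at -0.65 (SE 0.19) and CXCR2, a chemokine receptor, at -0.74 (SE 0.30) in VEN+CSA against VEN. CXCR2 was at 18.1 and 19.5 CPM with VEN+CSA and 22.4 and 40.4 CPM with VEN, and at a log2 fold change of -0.25 without VEN replicate 2. MMP9, a gelatinase, was at 3.51 and 3.31 CPM with VEN+CSA, 1.59 and 1.17 with VEN, and 1.55 and 1.83 with CSA, above the others in both VEN+CSA libraries. Its log2 fold change was 1.29 (SE 0.28) against VEN and 1.01 (SE 0.27) against CSA. CSF3R, the granulocyte growth factor receptor, was at 50.7 and 59.9 CPM with VEN+CSA, 55.2 and 51.3 with VEN, and 54.7 and 61.2 with CSA. With all libraries, adjusted p by edgeR was at least 0.254 for every granulocyte gene in the 3 comparisons. In bulk samples, fewer cells of a type and less RNA per cell cannot be told apart.

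**Figure D4:**
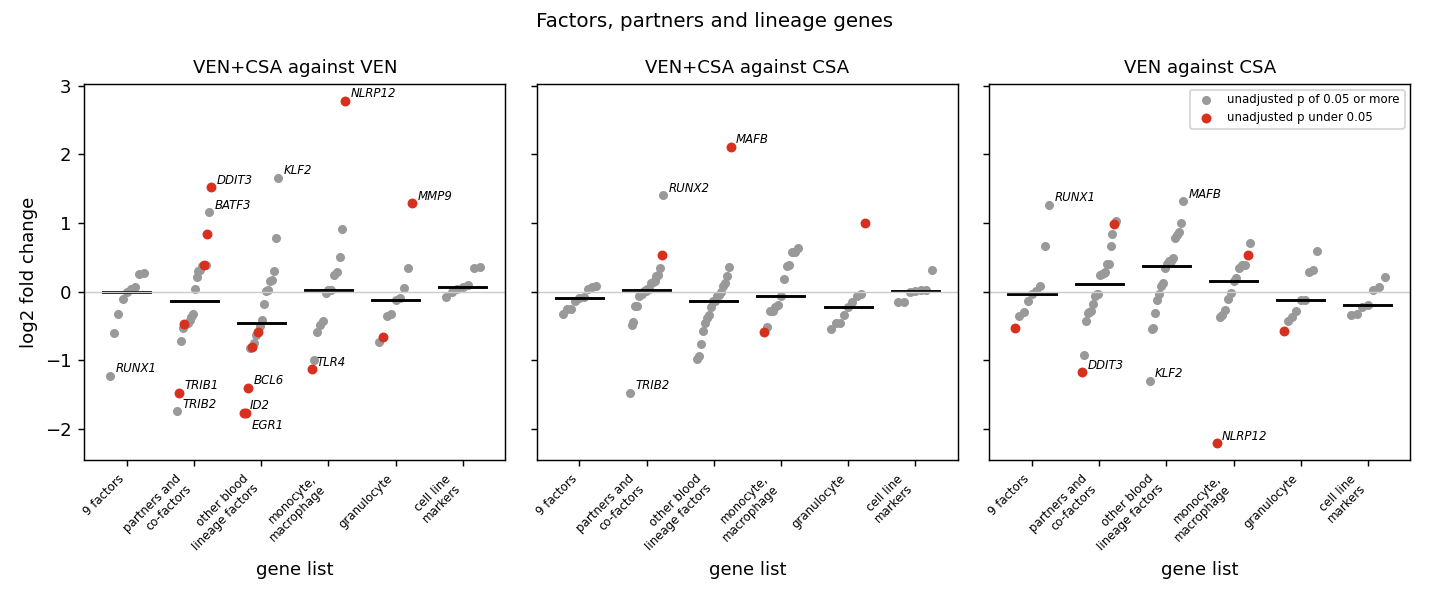
Log2 fold change (y axis) of each tested gene of 6 lists (x axis) in VEN+CSA against VEN, VEN+CSA against CSA and VEN against CSA, with a bar at each list's median and red points for an unadjusted p under 0.05 by edgeR. No gene shown passed the adjusted threshold with all 6 libraries, and genes past 1.1 in size are named.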

How the data were processed

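Gene counts from RNA-seq of 6 MV4-11 libraries were analysed, grouped by their titles. The labels' protocols name Trizol for the RNA, the KAPA RNA HyperPrep kit for the libraries and paired reads of 150 bp. STAR, RSEM, DESeq2 and build hg38 are listed per the submitters' processing notes, without roles or versions. The deposited table gives each gene's count as a whole number with no normalization. It holds 2 further columns that no label used here assigns, and they were not used. Of 20263 identifiers, 20148 matched a symbol. Total counts were 26567900 to 30738957 per library.

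The 12690 genes that passed filterByExpr were scaled by TMM (trimmed mean of M-values) and fitted by group in 1 model of the 6 libraries, with 3 residual degrees of freedom. Tests were edgeR's robust quasi-likelihood F-tests (version 4.0.16, R 4.3.3), adjusted by Benjamini-Hochberg over all genes tested. Standard errors (SE) and 95% intervals come from the fitted weights and the quasi-likelihood dispersion. Where a library is left out, its group holds 1 library, which is taken to vary as the other groups do. Alternatives were DESeq2 1.42.0, limma-voom 3.58.1, other scalings, no filter, the 4 libraries compared alone, a replicate block and leaving out each library. Removal of each library's loess trend (span 0.3) with transcript GC content, for 12680 genes, was added after the values were seen. The fit was tested on simulated data.

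The 9 genes and all lists were chosen with earlier results of these data known. Besides the 9, the text names from each list of partners, lineage factors, monocyte or granulocyte genes up to 3 genes of smallest p per comparison with a mean of at least 1 CPM, plus any past the threshold. Others named, such as CBFB, GFI1B, CSF1R, CSF3R, AZU1, MS4A7 and genes with few counts, were chosen after their values were seen. Of the like genes, 3 per factor were taken. Lists were described by counts and medians, without a set test. Of the markers of other cell types 3 were tested, with 0 past the threshold.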

Additional observations from a re-analysis of the deposited data

How the results depend on the processing

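Leaving out single libraries gave 0 to 3 members called in VEN+CSA against VEN and in VEN against CSA, and 0 in VEN+CSA against CSA. The 3 were RUNX1, ZEB2 and CEBPA in both, and came without VEN replicate 1, where VEN replicate 2 was the lone VEN library, taken to vary as the other groups do. RUNX1 was then at -1.93 and 1.97 (edgeR adjusted p = 0.0139 and 0.0164), ZEB2 at -1.01 and 1.08 and CEBPA at 0.89 and -0.98. In that fit 26.4% and 33.8% of all genes were called. Every other alternative called 0 members.

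For all genes, leaving out single libraries gave 0 to 3426 calls in VEN+CSA against VEN (49 without VEN replicate 2), 0 to 24 in VEN+CSA against CSA and 0 to 4385 in VEN against CSA, against 0 in each with all libraries. In the same order of comparisons DESeq2 called 294, 56 and 63, and no filter on low counts gave 15, 4 and 2. In VEN+CSA against CSA limma-voom called 1 gene and the 4 libraries alone 24. With the GC trend removed 46 genes were called in VEN+CSA against VEN, and with VEN replicate 2 also left out 62 there and 22 in VEN+CSA against CSA. The cause of these differences was not tested.

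Of 405 log2 fold changes of members under alternatives, 365 moved by less than 1 SE, and 47 changed sign, none past the threshold. Library size as the only scaling put the median of all genes at 0.26, -0.04 and -0.31 in that order, and SPI1 at -0.85 in VEN against CSA. The replicate numbers name no shared culture. The correlation over genes of replicate 2 minus replicate 1 was 0.25 between VEN+CSA and VEN, 0.16 between VEN+CSA and CSA and 0.19 between VEN and CSA. With a replicate block, 0 members and 0 genes were called in each comparison, and RUNX1 was at -0.98, 0.00 and 0.98. Depth limits CEBPE, with as few as 11 counts.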
